A study of Mus musculus with 12 samples.

Results

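The comparison described here is the passage from 20 to 28 weeks of age in podocytes of diabetic mice that kept a working Nsd2 gene, together with the expression profile these cells shared. The libraries were chosen by their labels alone: 3 control libraries at 20 weeks and 3 at 28 weeks, 6 of the 12 libraries of the series. The values came from the counts of genes listed in the tables of both ages. The other 6 libraries are labelled as lacking Nsd2, which encodes an enzyme that methylates histone H3, in podocytes. They entered the choice of genes tested, the scaling, the shared estimate of spread and 1 test of a difference.

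Both control groups had the genotype Cre-/Nsd2fl/fl, so they carried the floxed alleles and no Cre. Both had been through the HFD/STZ-induced diabetic model, a high-fat diet combined with streptozotocin, a toxin of the insulin-producing beta cell. The groups differed in age alone according to the labels, which call the source of every library primary podocytes and give all libraries 1 batch. Whether the cells were cultured is not stated there. No library of the series comes from an animal without the diabetic treatment, so the age difference is one within diabetic mice. Nothing in the labels ties the 3 libraries of a group to different mice, and the p-values therefore reflect library-to-library spread that could be technical only. The 2 ages were deposited as separate tables, and any difference in handling between them cannot be told apart from age.

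Podocytes wrap the outer face of the glomerular capillaries with interlocking foot processes, and the narrow gaps between the processes are bridged by a slit diaphragm, of which nephrin is a main component. They also secrete part of the glomerular basement membrane beneath them, above all the alpha-3, alpha-4 and alpha-5 chains of collagen IV. In diabetic kidney disease podocytes flatten, detach and are lost, and protein leaks into the urine.

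RNA was read to a similar depth in all 6 libraries, between 35684946 and 38989180 counts. Levels below are in CPM, the count scaled to library size, and are listed in the order of libraries 1, 2 and 3. A count of 0 leaves room for up to 3 reads, equal to 0.0769 to 0.0841 CPM depending on the library. That limit covers counting error only, since PCR copies cannot be recognised. Between 11109 and 11323 genes stood at 1 FPKM (fragments per kilobase of gene, scaled to library size) or more in each library, and mitochondrially encoded genes held between 1.32% and 2.22% of counts.

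Libraries of the same age were not more alike than libraries of different ages. The biological coefficient of variation of a pair, the share by which 2 libraries differ beyond counting error, ran from 0.0481 to 0.310 within an age (median 0.292, 6 pairs) and from 0.222 to 0.350 across ages (median 0.249, 9 pairs). Controls 2 and 3 at 28 weeks were the pair at 0.0481, the closest of all. Their counts still differed by more than counting error, with a mean chi-square of 4.58 per gene, where counting error alone gives about 1. They were kept as 2 libraries and also summed into 1 as an alternative. Control 1 at 28 weeks stood apart from them: 61 genes were over 2-fold above, and 256 over 2-fold below, all the other controls. Control 3 at 20 weeks had 249 genes over 2-fold above and 114 over 2-fold below all others, and control 2 at 20 weeks had 24 above and 191 below.

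**Figure D1:**
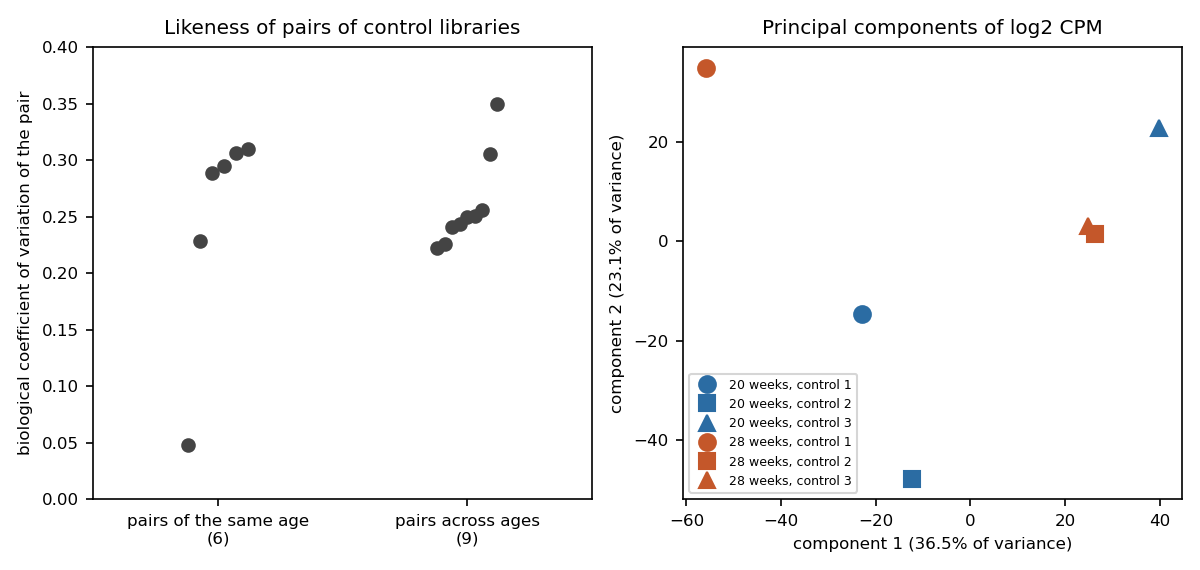
Left, the biological coefficient of variation (no unit) of each pair of control libraries, for the 6 pairs of the same age and the 9 pairs across ages; right, the first 2 principal components of log2 CPM, with the 20-week libraries in blue and the 28-week libraries in orange. The first component, with 36.5% of the variance, runs from control 1 at 28 weeks at the low end to control 3 at 20 weeks at the high end and does not separate the ages. The third, not drawn and with 18.3% of the variance, does. Its scores are -28.5, 2.2 and -34.1 at 20 weeks and 9.9, 23.1 and 27.4 at 28 weeks.

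The most abundant transcripts of the control cells, ranked by mean FPKM over the 6 libraries, were those of protein synthesis, mitochondria, iron storage and the cytoskeleton. Translation factor Eef1a1 led at 6395 FPKM (range 5332 to 8129.9), followed by the mitochondrially encoded oxidase subunit COX1 at 5279 FPKM (range 3864 to 6505), ferritin light chain Ftl1 at 2872 FPKM (range 2199.9 to 3794) and Tpt1 at 2815 FPKM (range 1997 to 3311). The 20 highest also held 7 ribosomal protein genes (Rpl41, Rplp1, Rplp0, Rps2, Rpl32, Rpl13a and Rpl35), CYTB, ND1, S100a11, Tmsb4x, Actb and Ppia. Ribosomal protein genes have many processed copies in the genome, so their counts are uncertain. The secreted proteins among the 20 were osteopontin (Spp1, 2261 FPKM (range 286 to 3666)), clusterin (Clu, 1795 FPKM (range 788 to 2519.8)) and Igfbp7 (1456 FPKM (range 1229 to 2142)). FPKM was scaled within each deposited table, so these levels describe the 6 libraries and were not tested between the ages.

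The podocyte markers were present but uneven. Of 18 slit diaphragm and surface genes, 15 had a mean of 1 FPKM or more and 8 had 10 FPKM or more. The adaptor Cd2ap was highest at 80.1 FPKM (range 65.4 to 93.9), then podocalyxin (Podxl, 61.7 FPKM (range 29.0 to 109)), the charged glycoprotein that keeps foot processes apart, and nephronectin (Npnt, 37.96 FPKM (range 25.2 to 48.7)). The chloride channel relative Clic5 had 19.5 FPKM (range 10.7 to 28.6). Nephrin (Nphs1), the slit diaphragm's own span, was low at 1.29 FPKM (range 0.239 to 2.497), and its relative Kirrel had 6.11 FPKM (range 3.96 to 10.1). The podocyte transcription factors Wt1 and Lmx1b stood at means of 14.0 and 2.55 FPKM. Synaptopodin (Synpo), an actin-binding protein of foot processes, had 18.5 FPKM (range 11.4 to 40.7), far below the intermediate filament vimentin (Vim) at 833 FPKM (range 667 to 1069). Of the basement membrane chains, Col4a1 had 98.0 FPKM and the podocyte chains Col4a3, Col4a4 and Col4a5 had 58.3, 29.2 and 23.8. The integrin pair that holds podocytes to the membrane was high, with Itgb1 at 866 and Itga3 at 147 FPKM.

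Other epithelial transcripts went against a pure podocyte label. The keratins Krt18, Krt8, Krt7 and Krt19 had mean levels of 746, 728, 654 and 263 FPKM, all above Cd2ap and podocalyxin. The tight junction protein claudin 4 (Cldn4) had 783 FPKM (range 645 to 918), Epcam 119 FPKM (range 30.4 to 189) and E-cadherin (Cdh1) 101 FPKM (range 36.8 to 182). All 12 genes of the parietal epithelium, the cells lining Bowman's capsule, were at 1 FPKM or more, and 11 at 10 FPKM or more. Krt8 alone ran from 61.6 FPKM in control 1 at 28 weeks to 1370 FPKM in control 2 at 28 weeks. The contractile genes transgelin (Tagln, 1298 FPKM (range 835 to 1598)) and smooth muscle actin (Acta2, 533 FPKM (range 415 to 703)) were also abundant.

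Tubule lists were mixed. Among genes at or near 0 were the proximal tubule receptor Lrp2 at 0.339 FPKM, Slc34a1 at 0.00439, uromodulin (Umod) at 0.190 and the collecting duct channel Aqp2 at 0.00328. Of the 14 proximal tubule genes 4 were at 1 FPKM or more and 2 at 10 FPKM or more, the injury gene Havcr1 at 101 FPKM (range 64.7 to 138) and the peptidase Ggt1 at 10.7 FPKM (range 1.69 to 21.6). Of the 20 genes of more distal segments, from the loop of Henle onwards, 8 were at 1 FPKM or more and 4 at 10 FPKM or more, with Cldn4 and Mal (171 FPKM (range 71.5 to 251)) highest. Red blood cell genes were at 0.0415 FPKM or less, and Alas2 had no read. The leukocyte antigen Ptprc had a mean of 0.873 FPKM, while the macrophage genes Lyz2 and C1qb had 76.6 and 12.9. The endothelial genes Emcn and Pecam1 had 18.2 and 5.08 FPKM. Slc22a6 and Hba-a2 are listed in the table of neither age and have no value here. Where the text says podocytes, it therefore means cells labelled so, with a mixed epithelial profile.

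**Figure D2:**
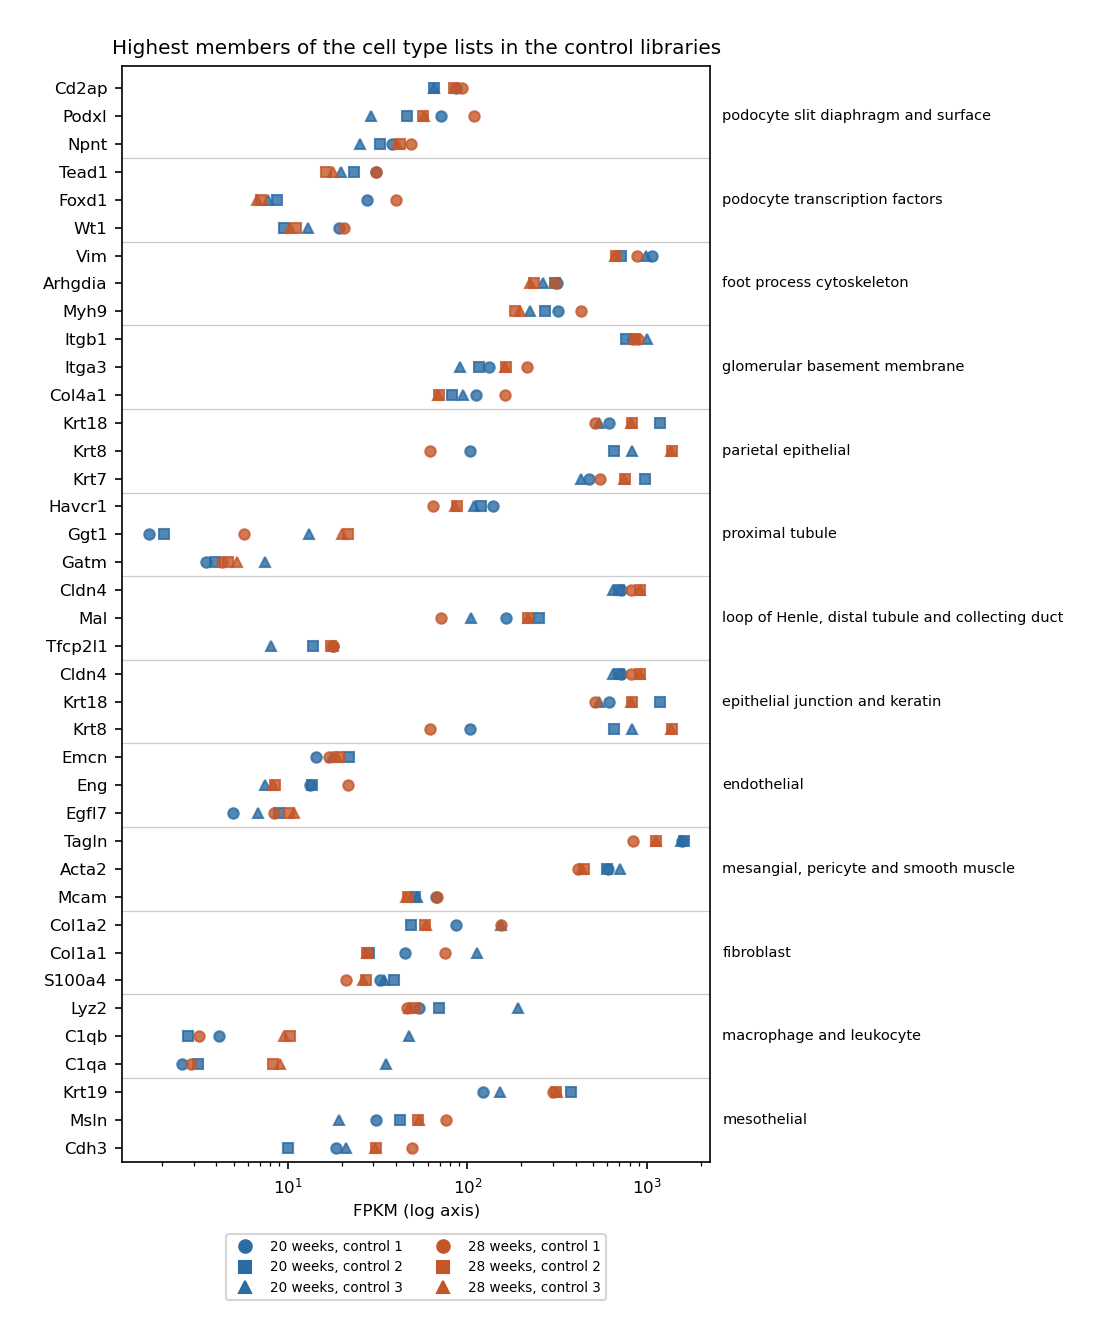
FPKM (log axis) of the 3 highest members of each cell type list in the 6 control libraries, 20 weeks in blue and 28 weeks in orange, with 1 point per library and the red blood cell list left out. Krt18, Krt7, Cldn4, Vim, Itgb1 and Tagln lie between 431 and 1598 FPKM in every library, above every slit diaphragm and podocyte transcription factor gene.

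The genes that varied most between libraries included keratins and claudins. Of the 4513 genes averaging 50 CPM or more, the 12 with the largest SD of log2 CPM over the 6 controls were Il1rl1, Krt8, Kcnk1, Prom1, Spp1, Krt17, Cd24a, Cldn6, Cldn3, Kcnj16, Bex1 and Eprn, with SDs from 1.08 to 2.28. Il1rl1, the interleukin 33 receptor, had the largest SD, with 85.0, 120.0 and 181 CPM at 20 weeks and 3.90, 293 and 302 CPM at 28 weeks. Control 1 at 28 weeks had almost no Il1rl1 and little Krt8 (180.2, 1164 and 1448 CPM at 20 weeks and 112, 2405 and 2425 CPM at 28 weeks). Cd24a, a surface protein of renal progenitor and parietal cells, had 462, 547 and 996 CPM at 20 weeks and 145, 1298 and 1326 CPM at 28 weeks, again lowest in control 1 at 28 weeks. The steadiest genes, Dcaf8, Hadhb, Nfx1, Ppm1a, Rab5b and Tmem127, each had an SD of 0.03 on the log2 scale.

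For the age comparison, 15662 genes were tested with edgeR's quasi-likelihood F test over all 12 libraries, and calls required an adjusted p (Benjamini-Hochberg) under 0.05. No gene was called between 28 and 20 weeks (0%), and the smallest adjusted p was 0.999938. At an unadjusted p below 0.05 there were 466 genes (2.98%), with 209 higher (1.33%) and 257 lower (1.64%) at 28 weeks. The median log2 fold change (28 over 20 weeks) was -0.01, the median absolute one 0.16, and 4.06% of genes exceeded 1 in either direction. The median 95% interval reached 0.59 log2 units to either side. By plain order of CPM, all 3 libraries at 28 weeks lay above all 3 at 20 weeks for 1223 genes (7.81%) and below for 867 (5.54%), together 13.3%.

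The choice of test mattered for this count. With the 6 controls fitted alone, edgeR again called 0 of 15091 genes, with a smallest adjusted p of 0.235 and 916 genes (6.07%) at an unadjusted p below 0.05. DESeq2 called 1 gene in the 12 libraries (0.00638%), Smim10l2a (adjusted p = 0.000938), and 123 in the 6 controls alone (0.815%), 107 higher (0.709%) and 16 lower (0.106%) at 28 weeks. Of those 123, 29 were still called with the near-identical controls 2 and 3 at 28 weeks summed into 1 library (0.188%). All 123 had groups that did not overlap, which is read from the same values and is no separate evidence. DESeq2 values below are from the 6 controls, and edgeR values are from the 12 libraries unless stated. The median SE of an edgeR log2 fold change was 0.27 in the 12 libraries and 0.20 in the 6 controls. No gene named below passed edgeR's adjusted test in the 12 libraries or in the 6 controls.

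**Figure D3:**
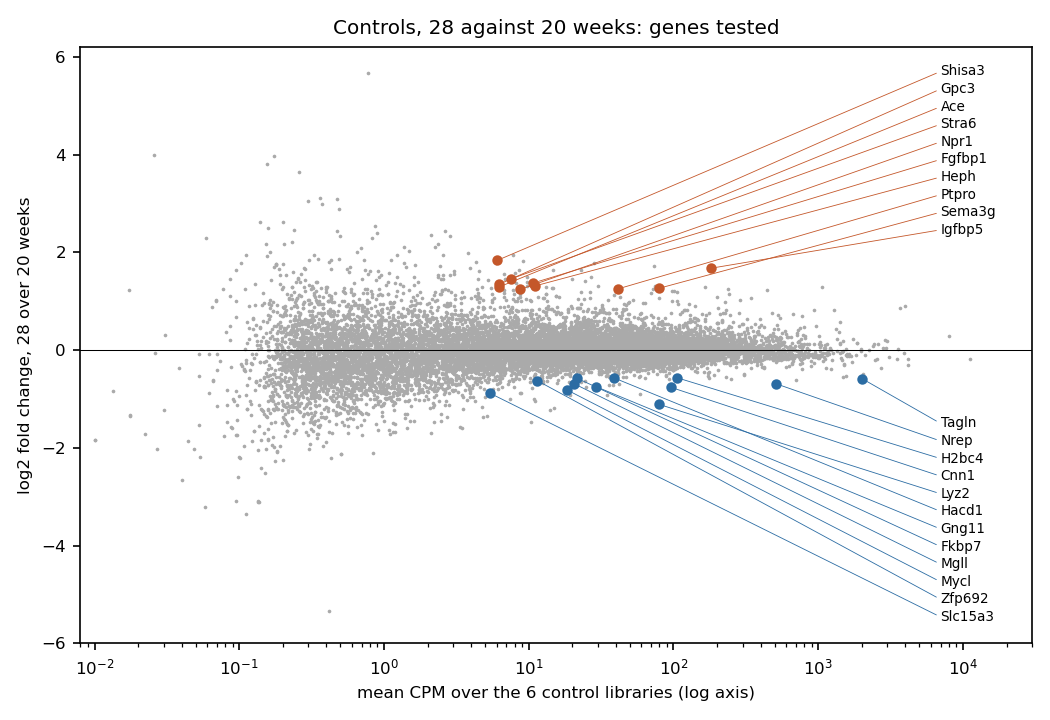
Log2 fold change (28 over 20 weeks) of each gene tested against its mean CPM over the 6 controls (log axis), with genes described here marked among the 12 highest (orange) and 12 lowest (blue) that had at least 5 CPM, no overlap between the ages and an edgeR unadjusted p below 0.05. Shisa3 at 1.84 and Igfbp5 at 1.67 are the highest of these and Lyz2 at -1.11 the lowest, and no gene passed the adjusted test.

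Of 107 genes that met this rule in the upward direction, the 12 with the highest fold changes included growth factor binding, podocyte and vasoactive genes. Igfbp5 (chr1:72857932-72874884, GRCm38 coordinates from GENCODE M21, as all below), a secreted binding protein of insulin-like growth factors, had 100.4, 64.3 and 94.95 CPM at 20 weeks and 258, 279 and 291 CPM at 28 weeks. The 28-week libraries were all far above the 20-week ones and close to each other. Its log2 fold change was 1.67 ± 0.67 (edgeR, ± SE; unadjusted p = 0.029), and DESeq2 gave an adjusted p of 7.03e-12, or 1.72e-06 with controls 2 and 3 at 28 weeks summed. Renin (Ren1, chr1:133350510-133360325), the enzyme that starts the angiotensin cascade, fell outside that rule through its low level and its p. It had 1.36, 1.79 and 1.48 CPM at 20 weeks and 6.72, 5.88 and 5.76 CPM at 28 weeks. The groups were wide apart at both ends, with a log2 fold change of 1.98 ± 0.96 (unadjusted p = 0.0621; DESeq2 adjusted p = 8.03e-13, summed 6.62e-06). The next enzyme of the cascade, Ace, had 4.38, 2.70 and 3.79 CPM at 20 weeks and 7.85, 8.53 and 10.3 CPM at 28 weeks, also without overlap, and a log2 fold change of 1.29 ± 0.47 (DESeq2 adjusted p = 0.000685, summed 0.0614).

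Smim10l2a, which encodes a small membrane protein, had 2.08, 1.99 and 2.57 CPM at 20 weeks and 7.98, 6.01 and 6.48 CPM at 28 weeks. Its unadjusted p of 0.000201 was the smallest of all genes in edgeR's quasi-likelihood test of the 12 libraries. In the edgeR fit of the 6 controls alone its unadjusted p was 0.000151. There Slc12a3 (2.0e-05), Ren1 (3.7e-05) and Igfbp5 (4.7e-05) had smaller ones. Shisa3 had 3.18, 2.59 and 2.20 CPM at 20 weeks and 7.62, 11.3 and 9.57 CPM at 28 weeks and a log2 fold change of 1.84 ± 0.77 (DESeq2 adjusted p = 3.4e-08, summed 0.000543). The 28-week values exceeded every 20-week value by a wide margin in both Smim10l2a and Shisa3. The retinol transporter Stra6, the natriuretic peptide receptor Npr1, the semaphorin Sema3g, the ferroxidase Heph, Fgfbp1 and the glypican Gpc3 had log2 fold changes of 1.46, 1.24, 1.26, 1.31, 1.37 and 1.34. Gpc3 rested largely on control 1 at 28 weeks, with 4.25, 4.33 and 1.95 CPM at 20 weeks and 15.8, 5.48 and 5.45 CPM at 28 weeks.

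**Figure D4:**
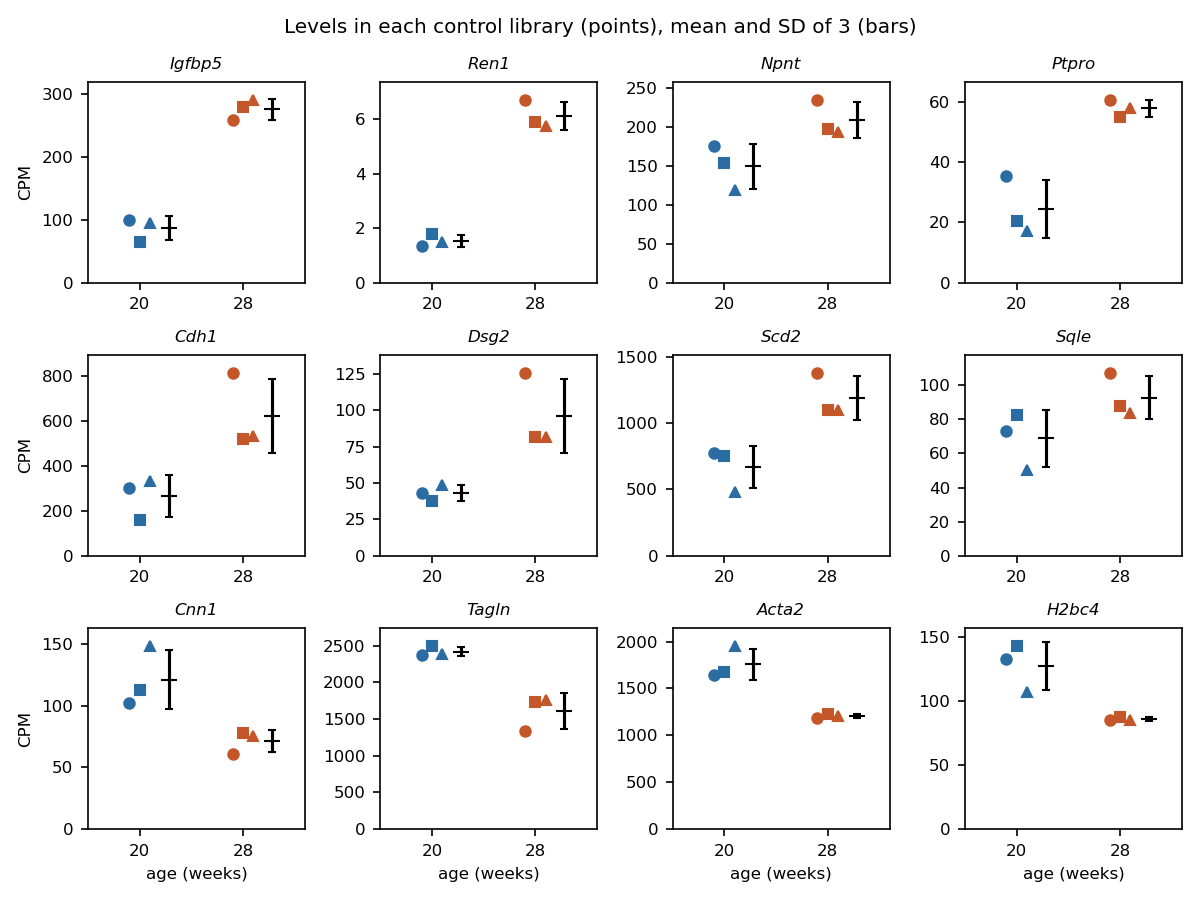
CPM of 12 genes in each control library (points; circle, square and triangle for libraries 1, 2 and 3) at 20 weeks (blue) and 28 weeks (orange), with the mean and SD of each 3 as bars, on axes that start at 0. The 12 are among the genes described here as without overlap, as were 13.3% of genes tested, so the separation in every panel follows from their choice. Levels are higher at 28 weeks in the first 8 genes and lower in Cnn1, Tagln, Acta2 and H2bc4.

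Nephrin, Ptpro and 4 other genes of the slit diaphragm and surface list had higher levels in every 28-week library, and no podocyte transcription factor had groups apart. Of 18 slit diaphragm and surface genes tested, 6 had all 28-week libraries above all 20-week ones (background 7.81%), none had the reverse, and 15 had a positive log2 fold change. The list's median was 0.26 beside -0.01 over all genes tested, and its summed level was 1590 to 2349 CPM at 20 weeks and 2060 to 3171 CPM at 28 weeks. In bulk RNA, more cells of a type and more RNA per cell cannot be told apart. Without control 1 at 28 weeks the median was 0.21 and 11 of 18 were positive, with 7 genes higher (background 15%) and 3 lower (background 17%). Without control 3 at 20 weeks the median was 0.24 and 11 of 18 were positive, with 6 higher (background 13.3%) and none lower (background 10.3%). With controls 2 and 3 at 28 weeks summed, 7 were higher (background 10.4%) and none lower (background 7.75%). Without control 3 at 28 weeks, 6 were higher (background 10.2%) and none lower (background 8.04%).

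The receptor tyrosine phosphatase Ptpro (chr6:137252319-137463233), also called GLEPP1, had 35.3, 20.5 and 17.3 CPM at 20 weeks and 60.7, 54.9 and 58.0 CPM at 28 weeks. The 28-week libraries were nearly equal, and the log2 fold change was 1.25 ± 0.37 (unadjusted p = 0.0063; DESeq2 adjusted p = 0.00343, summed 0.0663). Nephronectin (Npnt) had 176, 154 and 119 CPM at 20 weeks and 235, 197 and 193 CPM at 28 weeks and a smaller log2 fold change of 0.48 ± 0.15 (unadjusted p = 0.00938).

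Nephrin (Nphs1) had 7.72, 4.86 and 1.43 CPM at 20 weeks and 15.3, 8.58 and 8.73 CPM at 28 weeks, a log2 fold change of 1.22 ± 0.67 that the test could not tell from 0 (unadjusted p = 0.0941). Its 20-week values ran over a wide range, and the lowest 28-week value was only just above the highest of them. The peptidase Dpp4 and the membrane protein Thsd7a, also among the 6, had log2 fold changes of 0.64 and 0.22. Podxl (365, 243 and 151 CPM at 20 weeks and 587, 293 and 303 CPM at 28 weeks) and Clic5 (156, 83.6 and 70.8 CPM at 20 weeks and 194, 134 and 137 CPM at 28 weeks) overlapped between the ages. DESeq2 called 3 of the 18 genes higher (0.709% over all genes), Ptpro and Dpp4 among them. It called 0 of them with controls 2 and 3 at 28 weeks summed (0.188% over all genes in either direction).

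None of the 10 podocyte transcription factors had groups that did not overlap, and the median log2 fold change was -0.03. Wt1, the defining factor of podocytes, had 56.9, 29.0 and 39.4 CPM at 20 weeks and 64.2, 33.6 and 31.4 CPM at 28 weeks and a log2 fold change of 0.04. Library 1 was the highest of its age at both ages. The list's values rested on control 1 at 28 weeks: without it the median was -0.54 and 6 of 10 genes were lower at 28 weeks (background 17%). The 14 foot process cytoskeleton genes had a median of 0.10, with 1 (Enpep) higher without overlap (background 7.81%) and none lower (background 5.54%). Synpo had 190.2, 118 and 104 CPM at 20 weeks and 369.8, 101 and 102 CPM at 28 weeks, with control 1 at 28 weeks more than 3 times as high as the other libraries of its age.

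The basement membrane list also turned on 1 library. Its median over 17 genes was 0.21, with 2 genes higher without overlap (background 7.81%) and none lower (background 5.54%). Without control 1 at 28 weeks the median was -0.39, with 2 genes higher (background 15%) and 6 lower (background 17%). Col4a3 (645, 443 and 309 CPM at 20 weeks and 982, 347 and 359.6 CPM at 28 weeks) and Col4a5 (168, 98.9 and 130.0 CPM at 20 weeks and 285, 118 and 122 CPM at 28 weeks) were highest in control 1 at 28 weeks and overlapped elsewhere. The 2 genes without overlap were agrin (Agrn), the heparan sulfate proteoglycan of the membrane, with a log2 fold change of 0.50 ± 0.31, and the laminin receptor chain Itga3. Itga3 (chr11:95044474-95076801) had 676, 608 and 473 CPM at 20 weeks and 1152, 849 and 849 CPM at 28 weeks and a log2 fold change of 0.70 ± 0.21 (unadjusted p = 0.00686). Its partner Itgb1 overlapped, with a log2 fold change of 0.03.

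Among the gene lists, that of epithelial junctions and keratins had the most genes apart between the ages. All 28-week libraries lay above all 20-week ones for 17 of 28 genes (background 7.81%), for none below, and 27 had a positive log2 fold change with a median of 0.61. The count of genes higher was between 17 and 22 without control 3 at 20 weeks, without control 1 or control 3 at 28 weeks, and with controls 2 and 3 summed, where the backgrounds were 10.2% to 15%. Without control 3 at 20 weeks, 18 were higher (background 13.3%) and 1 lower (background 10.3%). Of the 28, 1 (F11r) had an edgeR unadjusted p below 0.05 in the 12 libraries, and 15 did with the 6 controls fitted alone, where 3.99% of all genes did.

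E-cadherin (Cdh1, chr8:106603351-106670246), the adhesion molecule of adherens junctions, had 300.0, 161 and 335 CPM at 20 weeks and 813, 521 and 531 CPM at 28 weeks. Every 28-week library exceeded every 20-week one, yet the 12-library interval was wide, with a log2 fold change of 1.23 ± 1.14 (unadjusted p = 0.302). In the edgeR fit of the 6 controls alone the SE was smaller, with 1.21 ± 0.30 (unadjusted p = 0.00532, adjusted p = 0.632). DESeq2 gave adjusted p = 0.0204 in the 6 controls and 0.0802 with the near-identical pair summed. The desmosomal cadherin Dsg2 had 43.2, 37.5 and 48.6 CPM at 20 weeks and 126, 81.5 and 81.6 CPM at 28 weeks and a log2 fold change of 1.16 ± 1.024 (DESeq2 adjusted p = 0.000313, summed 0.00262). Its 20-week libraries lay within a narrow range, well under the lowest 28-week value. With the 6 controls fitted alone, the edgeR unadjusted p of Dsg2 was 0.000595. The further desmosomal cadherin Dsc2 had 14.6, 3.75 and 13.7 CPM at 20 weeks and 39.6, 23.1 and 25.2 CPM at 28 weeks, also without overlap.

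Other members without overlap included the tight junction proteins Cldn4, F11r, Tjp3, Ocln and Marveld2, the plaque proteins Jup, Dsp and Pkp3, the serine protease St14 with its inhibitor Spint1, and the epithelial regulators Esrp1, Grhl2 and Ovol1. Their log2 fold changes ran from 0.31 for F11r to 1.06 for Esrp1. The keratins differed from them: Krt18 (827, 1622 and 739.7 CPM at 20 weeks and 721, 1115 and 1125 CPM at 28 weeks), Krt7 (725, 1528 and 669 CPM at 20 weeks and 869.8, 1158 and 1164 CPM at 28 weeks) and Krt8 overlapped between the ages, with log2 fold changes of -0.11, 0.13 and 0.82. DESeq2 called 5 of the 28 higher (0.709% over all genes), among them Dsg2, Dsp, Cdh1 and Marveld2. With the pair summed it called 1 of the 5 (0.188% over all genes in either direction).

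Marker lists of other epithelia were short, and their shares of genes higher without overlap exceeded the 7.81% over all genes. Those shares were 28.6% of mesothelial, 16.7% of parietal, 20% of distal and 12.5% of proximal genes tested. Only the proximal list had a gene lower without overlap (12.5%, beside 5.54% of all genes). Summed mesothelial markers were 369 to 694 CPM at 20 weeks and 707 to 866 CPM at 28 weeks, with Msln and Cdh3 without overlap (2 of 7 tested). Parietal markers had a median of 0.42 and 2 of 12 genes without overlap, Cldn1 and Cd44. Claudin 1 (Cldn1), a tight junction protein of Bowman's capsule, had 207, 184 and 164 CPM at 20 weeks and 313, 284 and 315 CPM at 28 weeks (log2 fold change 0.72 ± 0.40; DESeq2 adjusted p = 0.000125, summed 0.0305). With the 6 controls fitted alone, edgeR gave Cldn1 0.71 ± 0.12 (unadjusted p = 0.000623, adjusted p = 0.589). Distal tubule and collecting duct markers had a median of 0.44 over 15 genes tested, 3 of them without overlap: Cldn4, the sodium channel subunit Scnn1a (18.1, 15.3 and 14.0 CPM at 20 weeks and 39.9, 25.1 and 26.3 CPM at 28 weeks) and the thiazide-sensitive transporter Slc12a3. Slc12a3 rested on very few reads, 1 in each 20-week library and 35, 83 and 63 in the 28-week ones. Summed distal markers were 1566 to 2136 CPM at 20 weeks and 1951 to 2485 CPM at 28 weeks, and summed proximal markers 321 to 366 CPM and 203 to 295 CPM. Most of the proximal sum in every library was the injury gene Havcr1, so it mainly restates that gene. The 8 proximal genes tested had 3 positive and 5 negative log2 fold changes, and Ggt1 overlapped between the ages. The part of these cell types in the junction genes was not tested.

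A list of mesangial, pericyte and smooth muscle genes had 8 positive and 9 negative log2 fold changes, with a median of -0.01. Transgelin, calponin, smooth muscle actin and desmin were the 4 of its 17 genes with all 28-week libraries below all 20-week ones (background 5.54%). The summed list was 4638 to 4966 CPM at 20 weeks and 3183 to 3418 CPM at 28 weeks. Most of that sum in every library was transgelin and smooth muscle actin, both among these 4 genes, so it mainly restates their levels. Calponin (Cnn1, chr9:22099216-22109630) had 102, 113 and 148 CPM at 20 weeks and 61.0, 77.9 and 75.3 CPM at 28 weeks. Control 3 at 20 weeks was highest and control 1 at 28 weeks lowest, and the log2 fold change was -0.76 ± 0.18 (unadjusted p = 0.00153; DESeq2 adjusted p = 0.0371, summed 0.212). Transgelin (Tagln, chr9:45929619-45936058) had 2380.4, 2495 and 2387 CPM at 20 weeks and 1333, 1736 and 1765 CPM at 28 weeks, a log2 fold change of -0.59 ± 0.24. Acta2 (chr19:34241090-34255590) had 1647, 1673 and 1950.2 CPM at 20 weeks and 1183, 1227 and 1209 CPM at 28 weeks, with nearly equal 28-week values and a log2 fold change of -0.54 ± 0.28 (unadjusted p = 0.0837; DESeq2 adjusted p = 0.00511, summed 0.204).

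DESeq2 called 3 genes of the list lower (0.106% over all genes), Cnn1, Tagln and Acta2, and none of these with the pair summed. The pericyte receptor Pdgfrb (76.7, 44.4 and 55.3 CPM at 20 weeks and 122, 40.0 and 41.2 CPM at 28 weeks), Mcam and Rgs5 overlapped, and Ren1 was higher. Without control 1 at 28 weeks the list's median was -0.46, with 9 of 17 genes lower (background 17%) and 4 higher (background 15%). Further genes lower without overlap, named by the same rules, were Tmsb4x (2121, 2441 and 2570.1 CPM at 20 weeks and 1619, 1752 and 1699 CPM at 28 weeks; log2 fold change -0.49 ± 0.13), the G protein subunit Gng11 (-0.75), Nrep (-0.69), the monoglyceride lipase Mgll (-0.69) and Hacd1 (-0.57). Tmsb4x, thymosin beta-4, binds actin monomers, and its 28-week values lay together well under the lowest 20-week one.

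Of 21 genes of cholesterol synthesis and handling, 19 had a positive log2 fold change, with a median of 0.34, and 4, the synthesis enzymes Sqle and Lss among them, had no overlap upward (background 7.81%) and none downward. Sqle had 73.2, 82.7 and 50.4 CPM at 20 weeks and 107, 87.4 and 83.3 CPM at 28 weeks and a log2 fold change of 0.43 ± 0.20, and Lss had 51.0, 59.5 and 21.8 CPM at 20 weeks and 76.9, 67.8 and 63.9 CPM at 28 weeks and 0.66 ± 0.31. Control 3 at 20 weeks was the lowest of all in both genes, and without it the list's median was 0.16 with 6 of 21 genes higher (background 13.3%). DESeq2 called 0 of the 21. The desaturase Scd2 (chr19:44293674-44306864) had 775, 748 and 484 CPM at 20 weeks and 1376, 1094 and 1095 CPM at 28 weeks, again with control 3 at 20 weeks lowest, and a log2 fold change of 0.83 ± 0.21 (unadjusted p = 0.00214; DESeq2 adjusted p = 0.0299, summed 0.234). The 26 genes of fatty acid oxidation and synthesis had a median of 0.06, with 14 positive and 12 negative. Of these, 4 (Scd2, Fasn, Lpl and Acaca) were higher without overlap (background 7.81%) and 1 (Hadhb) lower (background 5.54%). Hadhb is among the steadiest genes named above, so its difference was very small.

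Replication-dependent histone genes had lower levels at 28 weeks. All 8 tested had negative log2 fold changes, with a median of -0.51, and 3 had no overlap (H2bc4, H1f2 and H4c8; background 5.54%). H2bc4 had 132, 143 and 107 CPM at 20 weeks and 84.8, 87.2 and 85.2 CPM at 28 weeks, with tight 28-week values and a log2 fold change of -0.57 ± 0.18 (unadjusted p = 0.01; DESeq2 adjusted p = 0.0204, summed 0.357). H1f2 had 109, 128 and 101 CPM at 20 weeks and 78.4, 86.4 and 90.7 CPM at 28 weeks and -0.40 ± 0.15. These genes form a family of near-identical copies, so their counts are uncertain. Cell cycle genes did not show this, with a median of 0.13 over 28 genes and 1 (Ccnb2) without overlap, which was higher (background 7.81%). Without control 3 at 20 weeks 9 were higher (background 13.3%), and without control 1 at 28 weeks 6 were lower (background 17%).

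Leukocyte genes were low and unevenly spread. Their median log2 fold change was -0.91 over 14 genes, and 0.29 without control 3 at 20 weeks. That library held a summed 430.2 CPM of leukocyte markers, the other 5 libraries between 103 and 128 CPM. Lyz2, the macrophage lysozyme, had 54.6, 72.4 and 199 CPM at 20 weeks and 48.9, 52.2 and 49.8 CPM at 28 weeks, and C1qb had 4.41, 3.03 and 51.5 CPM at 20 weeks and 3.56, 11.0 and 10.5 CPM at 28 weeks. Lyz2 was lower in each 28-week library, and control 3 at 20 weeks was far above all others in both genes. Endothelial genes were low at both ages. Their summed levels were 109.9 to 155 CPM at 20 weeks and 157 to 209 CPM at 28 weeks, all 15 log2 fold changes were positive with a median of 0.36, and 5 had no overlap (Pecam1, Cdh5, Cldn5, Plvap and Kdr; background 7.81%). Without control 3 at 20 weeks, 11 of 15 were positive and 5 without overlap (background 13.3%). Pecam1 had 14.98, 10.8 and 11.2 CPM at 20 weeks and 19.3, 21.5 and 22.0 CPM at 28 weeks and a log2 fold change of 0.77 ± 0.36 (DESeq2 adjusted p = 0.0185, summed 0.415). What these cell types contributed to the other differences was not tested.

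**Figure D5:**
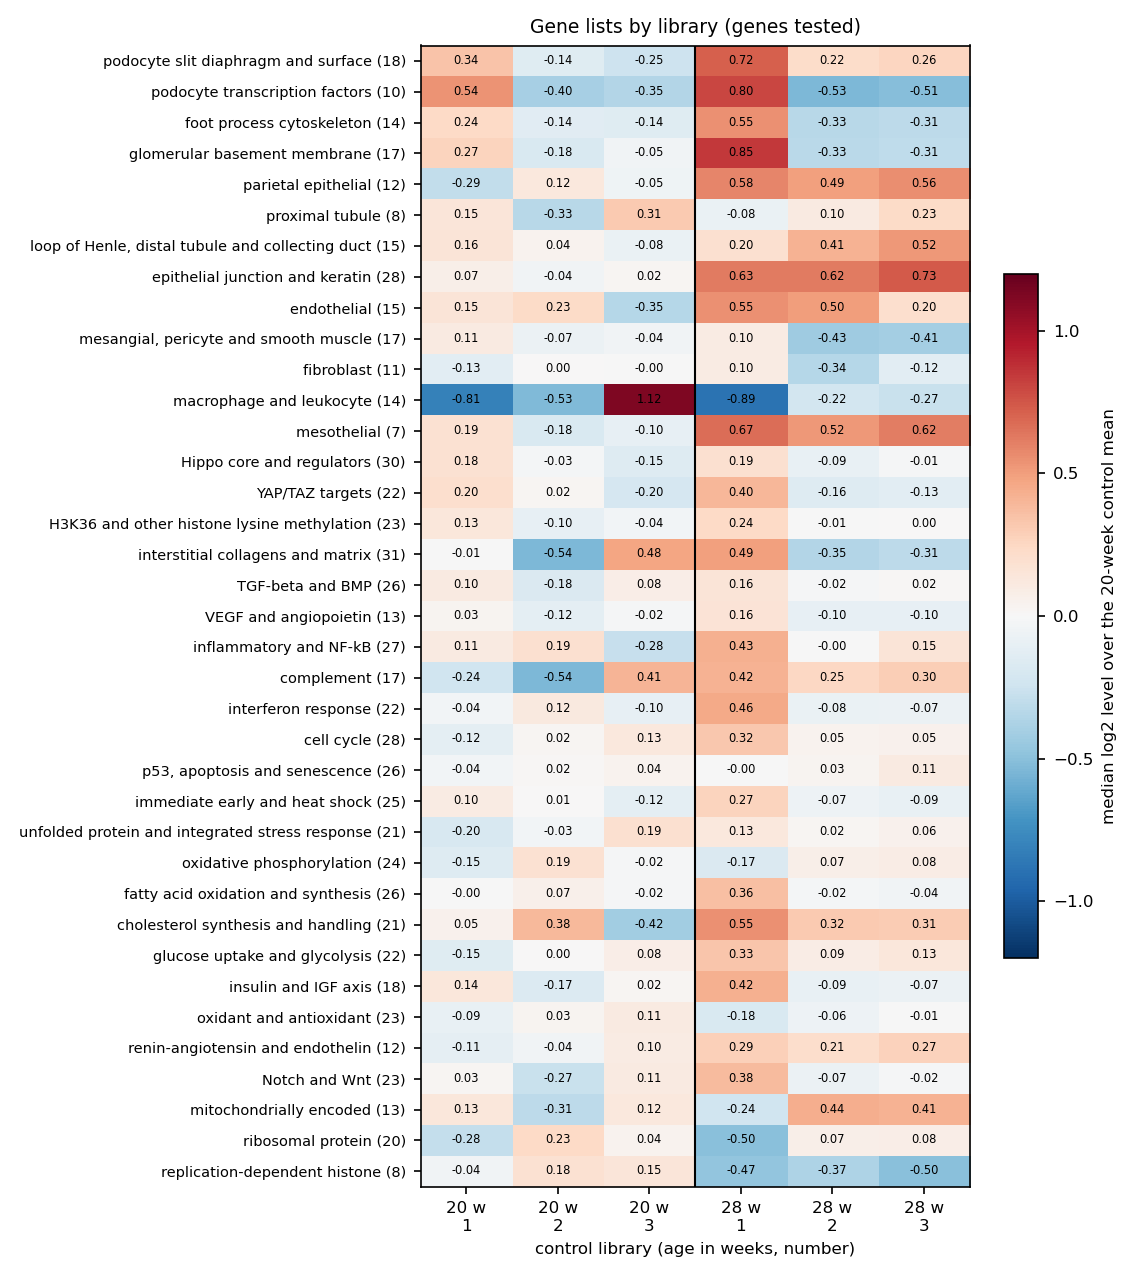
Median log2 level (CPM plus 0.5, relative to the 20-week control mean of each gene) of each gene list in each of the 6 control libraries, with the number of genes tested in brackets and red above, blue below the 20-week mean. The junction list is at 0.63, 0.62 and 0.73 in the 28-week libraries, the histone list at -0.47, -0.37 and -0.50, and the leukocyte list at 1.12 in control 3 at 20 weeks alone.

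Genes of injury and stress gave a mixed picture. Lipocalin 2 (Lcn2), a secreted marker of kidney injury, had 485, 684 and 671 CPM at 20 weeks and 2212, 1141 and 1155 CPM at 28 weeks, with control 1 at 28 weeks highest and no overlap, and a log2 fold change of 1.29 ± 0.84 (DESeq2 adjusted p = 0.00616, summed 0.0119). With the 6 controls fitted alone, edgeR gave Lcn2 1.27 ± 0.29 (unadjusted p = 0.00299, adjusted p = 0.632). Clusterin (Clu) had 2151, 1742 and 4386 CPM at 20 weeks and 5699, 4901 and 4938 CPM at 28 weeks and 0.91 ± 1.25. Havcr1, the kidney injury molecule of the proximal tubule, was lower in each 28-week library (334, 294 and 267 CPM at 20 weeks and 164, 214 and 214 CPM at 28 weeks). Of 27 inflammatory and NF-kB genes, 2 had no overlap, both higher (Lcn2 and Il1r1; background 7.81%), and the median was -0.02. Complement genes had a median of 0.48 with 3 of 17 without overlap (Clu, Cd55 and C1ra), all higher (background 7.81%). The median was 0.17 without control 1 at 28 weeks, and 0.87 with 8 of 17 higher (background 13.3%) without control 3 at 20 weeks. C3 overlapped and was high in control 1 at 28 weeks alone (18.9, 5.27 and 13.9 CPM at 20 weeks and 101, 15.6 and 14.1 CPM at 28 weeks).

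Interferon response genes had 4 of 22 higher (H2-K1, Ifih1, Usp18 and Ifit1; background 7.81%), 1 lower (Isg15; background 5.54%) and a median of 0.09. Without control 1 at 28 weeks the median was -0.15, with 5 higher (background 15%) and 6 lower (background 17%). The p53 targets Mdm2 (369, 419 and 376 CPM at 20 weeks and 300.2, 297 and 306 CPM at 28 weeks) and Cdkn1a (630.4, 682 and 689.5 CPM at 20 weeks and 626, 476 and 477 CPM at 28 weeks) and the death receptor Fas were the 3 of 26 genes of the p53, apoptosis and senescence list that were lower without overlap (background 5.54%), beside 1 higher (background 7.81%), with a median of -0.01. With control 1 at 28 weeks left out, 8 were lower (background 17%). The cyclin-dependent kinase inhibitors Cdkn2a and Cdkn2b, marks of senescence, had log2 fold changes of 0.09 and -0.01. The transporter Slc7a11, which supplies cystine for glutathione, had 7.56, 15.2 and 17.3 CPM at 20 weeks and 49.5, 27.6 and 29.1 CPM at 28 weeks (DESeq2 adjusted p = 0.0263, summed 0.0851), while the oxidant-response reductase Srxn1 was lower (54.3, 62.6 and 56.4 CPM at 20 weeks and 39.2, 45.9 and 44.5 CPM at 28 weeks).

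Nsd2 and lists of histone methylation and Hippo pathway genes had values near those of all genes. Nsd2 (chr5:33820725-33897975) had 97.1, 66.7 and 77.8 CPM at 20 weeks and 88.0, 79.4 and 81.7 CPM at 28 weeks, a log2 fold change of 0.04 ± 0.19, and the groups overlapped. No source used here gives the strand setting of the counting, so reads of a gene and of one on the other strand may be mixed. Histone lysine methylation enzymes had a median of 0.04, with 1 of 23, Kdm4a, higher without overlap (background 7.81%). Of 30 Hippo pathway genes, 2 were higher and 2 lower without overlap (backgrounds 7.81% and 5.54%), with a median of -0.01. Leaving out control 1 at 28 weeks, 4 were higher and 8 lower (backgrounds 15% and 17%). The pathway's end points Yap1 and Wwtr1 had log2 fold changes of -0.06 and -0.14, and their targets Ccn1 and Ccn2 had 0.09 and 0.04. Ccn2, an abundant matrix protein, had 2995, 2805 and 2437 CPM at 20 weeks and 3858, 2318 and 2319 CPM at 28 weeks. Without control 1 at 28 weeks the log2 fold changes of Ccn1 and Ccn2 were -0.22 and -0.24.

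TGF-beta and BMP genes had a median of 0.07 with 3 of 26 higher (Tgfbr2, Ltbp1 and Bmp7; background 7.81%) and 1 lower (Id3; background 5.54%). Bmp7, a kidney morphogen, had 22.6, 21.1 and 24.4 CPM at 20 weeks and 45.9, 29.6 and 27.0 CPM at 28 weeks and a log2 fold change of 0.59 ± 0.23 (unadjusted p = 0.0257). Interstitial matrix genes had a median of -0.10 with 2 of 31 higher (Timp3 and Col18a1; background 7.81%). Single libraries moved this list: without control 1 at 28 weeks the median was -0.42 with 5 lower (background 17%), and without control 3 at 20 weeks it was 0.22 with 5 higher (background 13.3%). The metalloproteinase inhibitor Timp3 had 459, 333 and 476 CPM at 20 weeks and 914, 530.1 and 542 CPM at 28 weeks. Vegfa, the podocyte factor that sustains the glomerular endothelium, had 176, 148 and 158 CPM at 20 weeks and 188, 164 and 179.9 CPM at 28 weeks, overlapping between the ages. Glycolysis genes had a median of 0.15 with 4 of 22 higher (Slc2a1, Hk2, Pfkp and Slc16a1; background 7.81%) and 8 without control 3 at 20 weeks (background 13.3%). The glucose transporter Slc2a1 had 207, 192 and 173 CPM at 20 weeks and 281, 239.9 and 243 CPM at 28 weeks. None of 24 nuclear genes of oxidative phosphorylation had groups without overlap, and their median was -0.01.

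Whether the age difference was particular to controls was tested as the difference between the age effect in controls and that in knockouts. edgeR called 0 of 15662 genes, with a smallest adjusted p of 0.538 and 1428 genes at an unadjusted p below 0.05 (9.12%). DESeq2 called 27 of the same 15662 genes. The control libraries are the same as in the age comparison.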

How the data were processed

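RNA sequencing of 12 libraries gave gene counts and FPKM, both as deposited by the authors, in a table per age; per the submitters' processing notes the build was GRCm38 (mm10). The sources used here do not give the aligner, counter, annotation or strand setting. Of the genes listed, 22290 stood in the count tables of both ages, and genes in only 1 table had at most 11 counts over 3 controls. Deposited counts were tested with edgeR 4.0.16 (R 4.3.3; TMM, filterByExpr, quasi-likelihood F test, all 12 libraries, Benjamini-Hochberg adjustment). The FPKM values of the authors were only described, since they were normalized separately for each age. DESeq2 1.42.0, limma-voom 3.58.1, other filters, scalings, the 6 controls alone and left-out libraries were alternatives. The procedure was tested on simulated data.

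The members and gene lists were chosen with earlier results of these data known. Genes were named by a written rule: Nsd2, the 12 highest and 12 lowest fold changes among genes of at least 5 CPM with no overlap and an unadjusted p below 0.05, the 3 smallest p, the smallest p of each list, a fixed set of cell type genes, the 20 highest FPKM, and the most and least variable genes. A few genes chosen this way are left out of the text, and further list members were named after their values were seen. All columns were assigned to a library, and 0 were left unused. Library totals were 35684946 to 38989180 counts in the controls.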

Additional observations from a re-analysis of the deposited data

How the results depend on the processing

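edgeR called 0 genes for age under each filter, scaling and left-out library tried, and limma-voom called 0. DESeq2 called 1 in the 12 libraries and 123 in the 6 controls. In the 6 controls it called 29 with libraries 2 and 3 at 28 weeks summed, and 27, 41 and 376 without 28-week library 3, 2 and 1; the last 4 of these settings, and the edgeR fits of the 6 controls without 1 library, were added after the data were seen. For the difference of age effects DESeq2 called 27 of 15662 genes. The cause of these differences was not tested. Leaving out 1 library gave 1640 to 2406 genes higher and 1289 to 2738 lower without overlap; a smaller group overlaps less often by its construction. Ranking by CPM in place of FPKM kept 10 of the 20 most abundant genes.

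Deviations from the group mean correlated at 0.249, -0.07 and 0.213 between same-numbered libraries of the 2 ages. Between differently numbered libraries the correlations ran from -0.26 to 0.201. With 3 libraries per age these values cannot decide whether the numbers pair the libraries. With a replicate block edgeR called 0 genes, with 433 at an unadjusted p below 0.05 in the 12 libraries and 1175 in the 6 controls. The log2 fold change of Ccn2 under the block in the 6 controls was -0.0058, and that of Lrp2 under the block was 0.37 and with limma-voom 0.038.

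Named genes whose sign turned lay close to 0 or rested on 1 library. Leaving out 1 library in the 12-library fit gave log2 fold changes of -0.073 to 0.18 for Nsd2, -1.56 to 0.0079 for Thbs2, -0.023 to 0.12 for Kdm5d, -0.11 to 0.41 for Uty and -1.93 to 0.29 for Angpt1. They were -0.22 to 0.25 for Ccn1, -0.24 to 0.17 for Ccn2, -0.39 to 0.55 for Col4a3, -0.13 to 0.62 for Col4a5 and -0.72 to 0.29 for Lrp2. They were -0.52 to 0.47 for Pdgfrb, -1.002 to 0.083 for Ptprc, -0.43 to 0.78 for Synpo and -0.25 to 0.039 for Yap1. For Krt7, Krt18 and Wt1 they were -0.081 to 0.61, -0.31 to 0.34 and -0.35 to 0.30.

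In the 6 controls without 28-week library 1, edgeR and DESeq2 gave -0.22 and -0.21 for Ccn1, -0.24 and -0.23 for Ccn2, -0.39 and -0.38 for Col4a3, and -0.13 and -0.13 for Col4a5. They gave -0.53 and -0.52 for Pdgfrb, -0.43 and -0.42 for Synpo, 0.085 and 0.090 for Krt18, and -0.36 and -0.35 for Wt1. Without 20-week library 3, edgeR gave -0.15 for Ccn1, -0.043 for Ccn2, 0.090 for Ptprc, 0.29 for Angpt1, -0.083 for Krt7 and -0.008 for Wt1. Without 20-week library 2 it gave -0.087 for Nsd2, -0.038 for Kdm5d, 0.33 for Krt18 and -0.18 for Wt1, and without 20-week library 1 it gave 0.28 for Lrp2, -0.055 for Krt7 and 0.0072 for Yap1. With libraries 2 and 3 at 28 weeks summed, edgeR in 12 libraries, edgeR in the 6 controls and DESeq2 gave -0.017, -0.029 and -0.040 for Uty and 0.036, 0.013 and 0.005 for Yap1. Without 28-week library 3 edgeR and DESeq2 gave -0.12 and -0.13 for Uty and 0.017 and 0.011 for Yap1, and without 28-week library 2 edgeR gave 0.0023 for Yap1.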

Other observations

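The following genes were picked after their values were seen. Lama3 and Lamb3, which encode laminin chains of epithelial basement membranes, had higher levels at 28 weeks without overlap. Lama3 had 55.3, 51.0 and 70.0 CPM at 20 weeks and 177, 113 and 116 CPM at 28 weeks, and Lamb3 had 101, 80.3 and 106 CPM at 20 weeks and 310.4, 195 and 195 CPM at 28 weeks. In both genes, control 1 at 28 weeks was well above controls 2 and 3. The edgeR log2 fold changes were 1.202 ± 0.94 and 1.29 ± 0.92, and neither passed the adjusted test. DESeq2 in the 6 controls gave Lamb3 an adjusted p of 6.53e-05, or 0.000646 with controls 2 and 3 at 28 weeks summed.

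The secreted Wnt antagonist Sfrp1 had 2.16, 0.966 and 6.41 CPM at 20 weeks and 12.4, 12.5 and 11.9 CPM at 28 weeks, all 28-week libraries above the 20-week ones.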
